A study of Mus musculus with 6 samples.

Results

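The oligodendrocyte lineage was followed through 9 genes, 5 of the precursor (Olig1, Olig2, Sox10, Pdgfra and Cspg4) and 4 of myelin (Mbp, Mog, Mag and Mobp), taken by name as single rows of count tables that hold 37620 mouse genes. Ribosome-bound mRNA was profiled in the dentate gyrus of mice aged 2 to 3 months that carried Gli1CreERT2, an Rpl22HA f/+ allele and either Klf9 +/+ or Klf9 f/f, with 3 samples of each genotype. All of the mice, controls included, received 3 tamoxifen injections 12 hr apart, so that Cre both switched on the HA-tagged ribosomal protein and, in Klf9 f/f mice, recombined Klf9. Tagged ribosomes were pulled down with an anti-HA antibody 4 days after the last injection, and each sample combined the 6 dentate gyri of 3 mice. The tag is driven by Gli1CreERT2, which the study uses to reach radial glia-like neural stem cells (RGLs). By the study's account this driver also targets astrocytes. The 9 genes mark a lineage other than the one the assay was built to reach. The homogenate set aside before the pulldown was not analysed here, and how far any of the 9 mRNAs was enriched on tagged ribosomes was not tested.

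Oligodendrocyte precursors divide and migrate through the adult brain, the hippocampus included, and carry the PDGF receptor alpha and the proteoglycan NG2 on their surface. The transcription factors Olig1, Olig2 and Sox10 are expressed from the precursor onward and drive the genes of the myelin sheath once a cell differentiates. Klf9 is itself a thyroid hormone-responsive transcription factor, and thyroid hormone is a classical signal for oligodendrocyte differentiation.

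Each sample had between 21594714 and 66343759 counts on genes, and the lowest single count of any of the 9 genes was 69, for Mog in Klf9 f/f replicate 3. By the titles of the libraries, replicates 1 and 2 of both genotypes belong to a series YTa22 and replicate 3 of both to a series YTa32, and the 2 YTa32 samples had the lowest totals. Replicate numbers are running numbers within a genotype and pair no samples. Levels are given as CPM, counts scaled to the size of each library with TMM factors, and where the level of a gene is given for the 3 samples of a genotype the order is that of replicates 1, 2 and 3. Fold changes are on the log2 scale, as Klf9 f/f against Klf9 +/+, and come from one fit over all 15056 genes above 1 CPM in at least 1 sample, with the library series as a term. All 9 genes passed that filter. A gene is called here where it changed at least 1.2-fold with an unadjusted p under 0.05, the threshold of the study's methods, and 4.32% of all genes tested were called, 1.82% higher and 2.5% lower in Klf9 f/f. Of all genes tested, 7553 had a fold change above 0 and 7503 below 0. At a Benjamini-Hochberg adjusted p under 0.05, the quasi-likelihood F-test of edgeR called 0 genes, where 650 genes had an unadjusted p under 0.05, and the likelihood-ratio test of edgeR gave 13 higher and 45 lower and DESeq2 7 higher and 32 lower at that adjusted level. Klf9 stood at 200.9, 203.9 and 139.0 CPM in the Klf9 +/+ samples and at 114.3, 121.3 and 120.0 CPM in the Klf9 f/f samples, so the groups did not overlap. The log2 difference of Klf9 was -0.78 within YTa22 but -0.21 within YTa32, where a single sample stands for each genotype. The pulled-down mRNA still carried Klf9 reads in each Klf9 f/f sample.

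Of the 9 lineage genes, Olig1 was called higher in Klf9 f/f (1 of 9, where 4.32% of all genes tested were called) and the other 8 did not pass the threshold. Of these 8, Olig2, Mog and Mag had fold changes above 0 and Sox10, Pdgfra, Cspg4, Mbp and Mobp below 0. The median log2 fold change was -0.08 over the 5 precursor genes and -0.07 over the 4 myelin genes, against 0.00084 over all genes tested. With a sample left out, these medians ran from -0.22 to 0.38 and from -0.30 to 0.20. In bulk ribosome-bound mRNA, fewer cells of a type and less RNA per cell cannot be told apart, and the p-values measure the spread between these pooled samples.

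**Figure D1:**
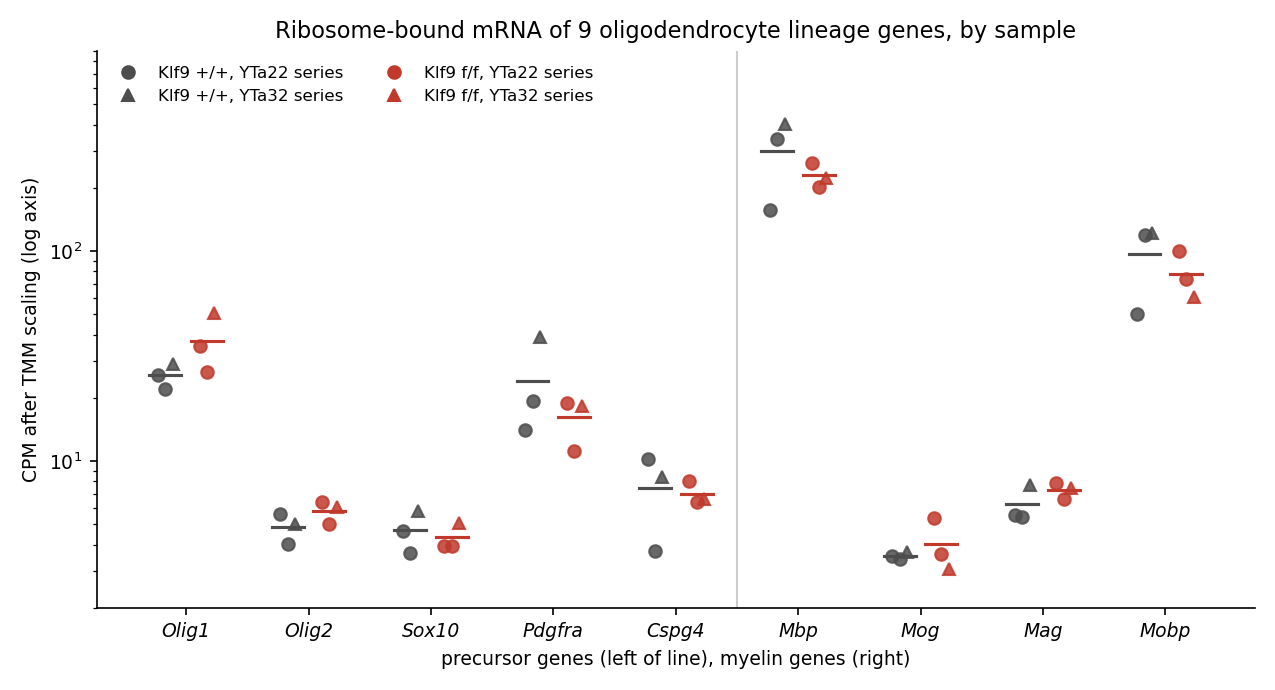
Level of each gene in each of the 6 samples, in CPM on a log axis, with circles for the YTa22 and triangles for the YTa32 library series and horizontal bars at the mean of each genotype. Mbp lies highest, from 157.2 to 403.5 CPM, the genotypes overlap for each of the 9 genes, and Klf9 +/+ replicate 1 is the lowest sample for Mbp and Mobp.

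The genes differed widely in level once divided by the length of their exons, joined over all annotated transcripts, of which Mbp has 16. Transcripts of one gene were not told apart. Mbp, which encodes myelin basic protein, the protein that compacts the sheath, had the highest mean at 31.6 ± 11.0 CPM per kb (SD, n = 6), at percentile 83.8 of all genes tested, and was above Olig1 in 6 of 6 samples although the ranges overlapped. Olig1 followed at 14.5 ± 4.72 and Mobp at 13.5 ± 4.74 CPM per kb (SD, n = 6 each). Olig1 was above Mobp in 4 of 6 samples, so these neighbours in the order did not differ beyond their spread. A wide step then separated Mobp from Pdgfra at 2.98 ± 1.44 CPM per kb (SD, n = 6), with no overlap between the samples of the one and the other. Pdgfra, Mag (2.79 ± 0.45), Mog (2.22 ± 0.47) and Olig2 (2.19 ± 0.34) lay within the spread of their neighbours. Sox10 at 1.66 ± 0.30 CPM per kb (SD, n = 6) was lower than Olig2 in 5 of 6 samples, and Cspg4, at 0.90 ± 0.27 and percentile 14.6, was lower than Sox10 in 6 of 6 with no overlap. Precursor and myelin genes were thus interleaved in the order of levels, and the 2 Olig genes, which neighbour each other on chromosome 16, lay at percentiles 69.5 and 27.9.

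Olig1 (ENSMUSG00000046160) is a single-exon gene (chromosome 16 of mm9, plus strand, 91270014 to 91272184) that encodes a basic helix-loop-helix factor of the oligodendrocyte lineage. It stood at 25.8, 22 and 29.1 CPM in the Klf9 +/+ samples and at 35.2, 26.6 and 50.5 CPM in the Klf9 f/f samples. Each Klf9 f/f sample lay above both or the only Klf9 +/+ sample of its own library series, as for 7.78% of all genes tested, whereas across the series Klf9 f/f replicate 2 lay below Klf9 +/+ replicate 3. Its fold change was 0.51 on the log2 scale (standard error 0.17, 95% interval 0.13 to 0.89, adjusted p = 1.00 after Benjamini-Hochberg correction in the quasi-likelihood F-test of edgeR). The log2 difference was 0.36 within YTa22 and 0.79 within YTa32. An exact two-sided permutation test of the 6 values, which takes no account of the library series, gave p = 0.2, where 3 samples against 3 cannot go below 0.1. Olig1 was no longer called without Klf9 f/f replicate 1 (0.43) or without the library series term (0.54). It was also not called without Klf9 +/+ replicate 3 (0.37), without Klf9 f/f replicate 3 (0.37) or in YTa22 alone (0.37), settings that all rest on the YTa22 comparison. Its fold change was above 0 in 13 of 13 alternatives, which reuse the same samples and are not independent support for the sign.

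Astrocytes, which the paper names beside RGLs as cells that Gli1CreERT2 targets, were followed by their own markers. Of 14 astrocyte markers, 14 had a fold change above 0 and 6 were called higher, with a median log2 fold change of 0.39. Over all genes tested, 7553 of 15056 were above 0 and 1.82% were called higher. Their summed level ran from 12971 to 16126 CPM in Klf9 +/+ and from 16072 to 20144 CPM in Klf9 f/f, and overlapped. The highest sample of both Olig1 and the astrocyte sum was Klf9 f/f replicate 3 and the lowest of both was Klf9 +/+ replicate 2. In mean log2 CPM, the wider lists of precursor genes and of myelin regulators given further below had the same highest and lowest samples. Both of these lists hold Olig1, and in summed CPM their lowest samples were others. The part of astrocytes in the Olig1 difference was not tested.

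Olig2 (ENSMUSG00000039830, plus strand of chromosome 16, 91225795 to 91228922 in mm9) encodes the factor without which oligodendrocytes are not specified. It stood at 5.58, 4.03 and 5.00 CPM in the Klf9 +/+ samples and at 6.38, 5.03 and 6.01 CPM in the Klf9 f/f samples. Klf9 f/f replicate 2 lay below Klf9 +/+ replicate 1 of its series, and the groups overlapped. Its log2 fold change of 0.25 had a standard error of 0.23 and a 95% interval of -0.27 to 0.78, and the differences within the 2 series, 0.25 and 0.26, were close to each other. Olig1 was 4.62 to 5.83 times as high as Olig2 in CPM in the samples other than Klf9 f/f replicate 3, where it was 8.39 times as high.

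Sox10 (ENSMUSG00000033006, minus strand of chromosome 15, 78985343 to 78994920) encodes the HMG-box factor that binds and activates myelin genes together with Myrf. It stood at 4.65, 3.63 and 5.78 CPM in the Klf9 +/+ samples and at 3.95, 3.96 and 5.08 CPM in the Klf9 f/f samples. The values of the genotypes were interleaved, and in both genotypes replicate 3, the YTa32 sample, was the highest. Sox10 differed by -0.11 on the log2 scale (standard error 0.23, 95% interval -0.61 to 0.40). Of the 3 transcription factors, only Olig1 passed the threshold. The differences between their fold changes were not tested.

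Pdgfra (ENSMUSG00000029231, plus strand of chromosome 5, 75548316 to 75594229) encodes the receptor through which PDGF-A keeps precursors dividing. It stood at 14.1, 19.2 and 38.8 CPM in the Klf9 +/+ samples and at 18.9, 11.2 and 18.3 CPM in the Klf9 f/f samples, the widest range of the 9 genes at 3.47-fold between the highest and the lowest sample. Klf9 +/+ replicate 3 stood apart at the top, and the other 5 samples overlapped between genotypes. Pdgfra differed by -0.45 on the log2 scale (standard error 0.26, 95% interval -1.05 to 0.14, adjusted p = 1.00 after Benjamini-Hochberg correction in the quasi-likelihood F-test of edgeR). The log2 difference was -0.18 within YTa22 and -1.08 within YTa32, where a single sample stands for each genotype, and the interaction of genotype and series was -0.94 (standard error 0.50, adjusted p = 1.00 in the same edgeR test). Pdgfra passed the threshold without Klf9 +/+ replicate 1 (-0.67), without Klf9 f/f replicate 1 (-0.79) and with no filter on low counts (-0.45), and its fold change was -0.15 without Klf9 +/+ replicate 3.

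Cspg4 (ENSMUSG00000032911, plus strand of chromosome 9, 56712911 to 56747677) encodes NG2, the proteoglycan by which precursors are usually stained. It stood at 10.2, 3.74 and 8.40 CPM in the Klf9 +/+ samples and at 8.00, 6.38 and 6.59 CPM in the Klf9 f/f samples. The Klf9 +/+ samples held both the highest and the lowest value and enclosed the Klf9 f/f samples. Cspg4 differed by -0.08 on the log2 scale (standard error 0.34, 95% interval -0.85 to 0.69), and the difference turned to 0.38 without Klf9 +/+ replicate 1. The ratio of Pdgfra to Cspg4 ran from 1.38 to 5.14 in CPM, lowest and highest in 2 Klf9 +/+ samples of one library series, replicates 1 and 2.

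Pdgfra and Cspg4 are not confined to oligodendrocyte precursors in brain, since fibroblasts of the meninges and vessels also express Pdgfra and mural cells of the vessels also express Cspg4. Markers of both cell types were present. Of 13 mural cell markers, 13 had a fold change below 0 and 7 were called lower, with summed levels of 599.7 to 1145 CPM in Klf9 +/+ and 449.9 to 774.5 CPM in Klf9 f/f. Of 13 fibroblast markers, 13 had a fold change below 0 and 1 was called lower (Ogn), with summed levels of 1171 to 2288 CPM in Klf9 +/+ and 752.2 to 1459 CPM in Klf9 f/f. Over all genes tested, 7503 of 15056 were below 0 and 2.5% were called lower. Klf9 +/+ replicate 3 was the highest and Klf9 f/f replicate 2 the lowest sample both for Pdgfra and for the fibroblast sum. The mural sum had the same highest and lowest samples, as did the summed level of choroid plexus markers. For Cspg4, Klf9 +/+ replicates 1 and 3 were the highest, as for the mural sum, but the lowest was Klf9 +/+ replicate 2. None of the mural and fibroblast markers was at 0 in any sample. The part of these cells in the Pdgfra and Cspg4 levels was not tested.

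**Figure D2:**
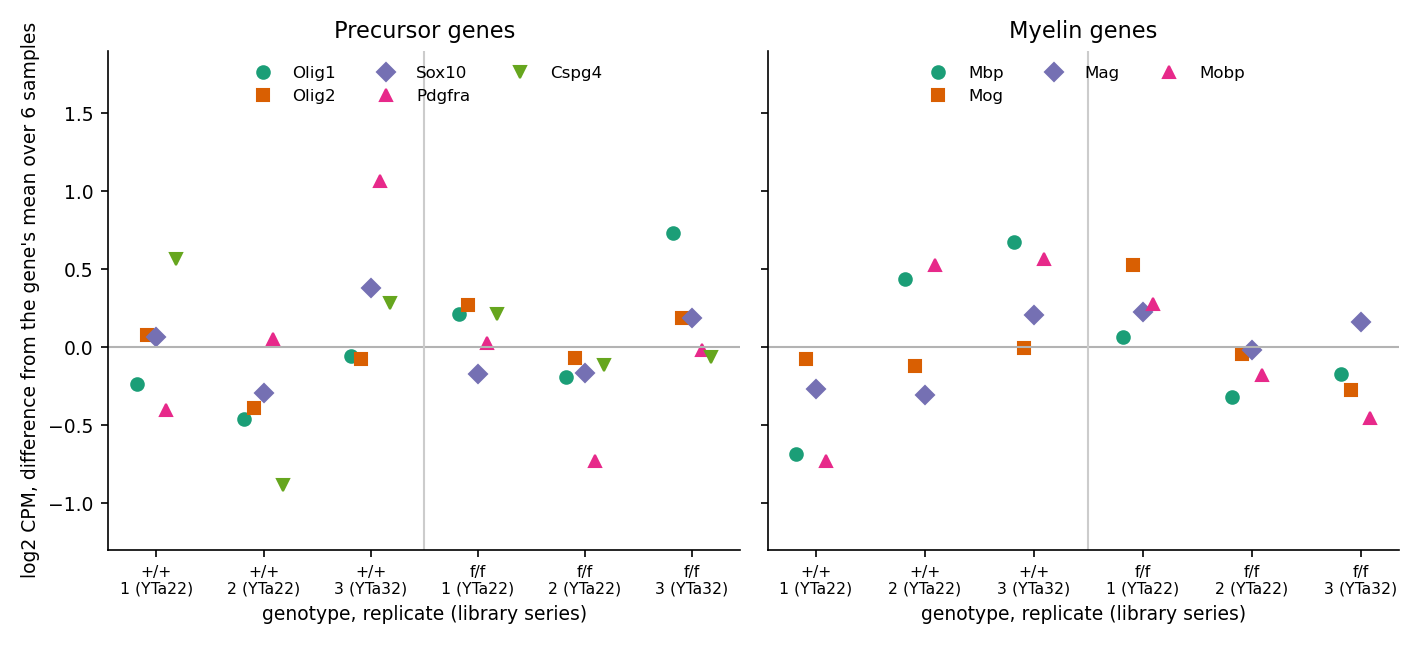
Log2 CPM of each gene as the difference from its own mean over the 6 samples, with precursor genes in the left panel, myelin genes in the right panel, and a vertical line between Klf9 +/+ and Klf9 f/f samples. Mbp and Mobp lie close together in each sample, lowest in Klf9 +/+ replicate 1 and highest in Klf9 +/+ replicates 2 and 3, while Mog is highest in Klf9 f/f replicate 1 and Mag in Klf9 f/f replicate 1 and Klf9 +/+ replicate 3.

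The myelin genes split into a pair of high, variable genes and a pair of low, steadier ones. Mbp (ENSMUSG00000041607, plus strand of chromosome 18, 82644538 to 82755029) stood at 157.2, 342.3 and 403.5 CPM in the Klf9 +/+ samples and at 264.1, 202.2 and 224.1 CPM in the Klf9 f/f samples. Klf9 +/+ replicate 1 held the lowest level and the other Klf9 +/+ samples the 2 highest, so the Klf9 f/f samples lay inside the Klf9 +/+ range. Mobp (ENSMUSG00000032517, plus strand of chromosome 9, 120058860 to 120090602), which encodes myelin-associated oligodendrocyte basic protein, stood at 50.1, 119.5 and 122.6 CPM in the Klf9 +/+ samples and at 100.5, 73.3 and 60.6 CPM in the Klf9 f/f samples, again with the Klf9 f/f samples inside the Klf9 +/+ range. The ratio of Mbp to Mobp stayed between 2.63 and 3.70 in CPM, a 1.41-fold range, although Mbp itself ranged 2.57-fold and Mobp 2.45-fold over the samples.

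The log2 fold change of Mbp was -0.35 (standard error 0.28, 95% interval -0.99 to 0.29) and that of Mobp -0.31 (standard error 0.33, 95% interval -1.05 to 0.43), and the adjusted p was 1.00 for both after Benjamini-Hochberg correction in the quasi-likelihood F-test of edgeR. Within YTa22 the log2 differences were -0.0056 for Mbp and 0.15 for Mobp, and within YTa32, with 1 sample of each genotype, they were -0.85 and -1.02. The interaction of genotype and series was -0.75 (standard error 0.56) for Mbp and -1.05 (standard error 0.60) for Mobp, with an adjusted p of 1.00 for both in the same edgeR test, and 0 of the 9 lineage genes had an unadjusted interaction p under 0.05, where 1.53% of all genes did. Without Klf9 +/+ replicate 1 both genes were called lower in Klf9 f/f, Mbp at -0.68 and Mobp at -0.70. Without Klf9 +/+ replicate 2 the log2 fold changes were -0.060 for Mbp and -0.012 for Mobp, without Klf9 +/+ replicate 3 -0.10 and 0.031, and without Klf9 f/f replicate 3 -0.099 and 0.035. Of the 9 lineage genes, 4 were called without Klf9 +/+ replicate 1 (Olig1, Pdgfra, Mbp and Mobp). In that setting 339 of all 14985 genes tested were called higher and 309 lower. With all 6 samples 1 of the 9 was called, where 274 of 15056 genes were called higher and 376 lower. Without Klf9 +/+ replicate 3 or Klf9 f/f replicate 3, 0 of the 9 were called. Leaving out either sample leaves no genotype comparison in YTa32, so these settings are not separate from YTa22 alone.

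Mog and Mag are minor proteins of the sheath, Mog on its outermost surface and Mag on the innermost layer that faces the axon. Mog (ENSMUSG00000076439, minus strand of chromosome 17, 37147691 to 37160343) stood at 3.52, 3.41 and 3.69 CPM in the Klf9 +/+ samples and at 5.36, 3.60 and 3.07 CPM in the Klf9 f/f samples. The Klf9 +/+ samples lay close together, and the Klf9 f/f samples fell on either side of them. Mag (ENSMUSG00000036634, minus strand of chromosome 7, 31684202 to 31699851) stood at 5.54, 5.41 and 7.71 CPM in the Klf9 +/+ samples and at 7.83, 6.60 and 7.48 CPM in the Klf9 f/f samples. In YTa22 both Klf9 f/f samples were above both Klf9 +/+ samples for Mog and for Mag, whereas in YTa32 the Klf9 f/f sample was below the Klf9 +/+ sample for both. Such opposite separation in the 2 series was found for these 2 of the 9 genes and for 9.94% of all genes tested.

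The log2 fold change was 0.17 for Mog (standard error 0.27, 95% interval -0.44 to 0.79) and 0.25 for Mag (standard error 0.21, 95% interval -0.22 to 0.73). Mag exceeded Mog 1.46-fold to 2.44-fold in CPM, and per kb of exon Mag was also above Mog in 6 of 6 samples, although the ranges overlapped. The ratio of Mbp to Mag ran from 28.4 to 63.3 and that of Mobp to Mog from 14.2 to 35.1 in CPM, with the highest value of both in Klf9 +/+ replicate 2 and the lowest in Klf9 +/+ replicate 1. The myelin genes thus did not rise and fall as one from sample to sample.

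Promoter windows were read from RefSeq on GRCm38.p6 for 6 of the 9 genes, with 250 bases before and 50 after the start site. Olig1, Sox10 and Mbp were not matched. The windows of Mobp, Mag and Mog, the myelin genes that were matched, are shown. Capitals mark ACAAAG or its reverse complement CTTTGT, letters at the core of sites bound by Sox factors. Of 32851 windows of this length in the table, 18.71% hold these letters on either strand.
Mobp, plus strand, chr9:120149492-120149791: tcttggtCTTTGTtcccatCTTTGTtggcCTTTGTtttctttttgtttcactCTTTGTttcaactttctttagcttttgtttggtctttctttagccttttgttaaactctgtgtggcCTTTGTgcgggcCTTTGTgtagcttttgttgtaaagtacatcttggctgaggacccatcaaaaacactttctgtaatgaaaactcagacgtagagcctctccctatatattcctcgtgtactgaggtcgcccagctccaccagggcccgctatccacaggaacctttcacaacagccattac
Mag, minus strand, chr7:30914873-30915172: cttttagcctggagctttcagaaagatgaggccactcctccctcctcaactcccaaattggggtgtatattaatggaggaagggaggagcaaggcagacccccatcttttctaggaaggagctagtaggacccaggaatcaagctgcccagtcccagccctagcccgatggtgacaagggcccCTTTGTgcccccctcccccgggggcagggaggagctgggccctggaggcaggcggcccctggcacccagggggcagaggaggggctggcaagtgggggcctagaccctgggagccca
Mog, minus strand, chr17:37023349-37023648: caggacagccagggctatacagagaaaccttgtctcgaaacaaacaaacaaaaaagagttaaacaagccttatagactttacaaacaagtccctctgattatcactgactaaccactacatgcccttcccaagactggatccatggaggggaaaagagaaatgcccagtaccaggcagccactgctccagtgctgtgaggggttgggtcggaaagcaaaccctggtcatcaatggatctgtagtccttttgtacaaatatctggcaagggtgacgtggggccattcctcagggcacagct

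Mobp held the letters 6 times, and it was the 1 window of 32851 with that many. Mag, for which the outermost of 3 windows was taken, held them once, and Mog, Olig2, Pdgfra and Cspg4 did not hold them within these bases. The GC box letters GGGCGG or CCGCCC, of the kind that Klf and Sp factors bind, were found 2 times in each of the Olig2 and Cspg4 windows and in none of the other 4, where 35.66% of all windows hold them. The letters CACCC or GGGTG were found in Olig2, Pdgfra, Mag and Mog, where 57.52% of all windows hold them, and CAGCTG, an E-box that reads the same on both strands, was found in 0 of 6, where 16.3% of all windows hold it. No match of one motif overlapped a match of another. The GC content ran from 43.3% in Mobp to 65% in Olig2, against a median of 52.7% over all windows. A match of letters is a description of the window and no measure of binding.

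**Figure D3:**
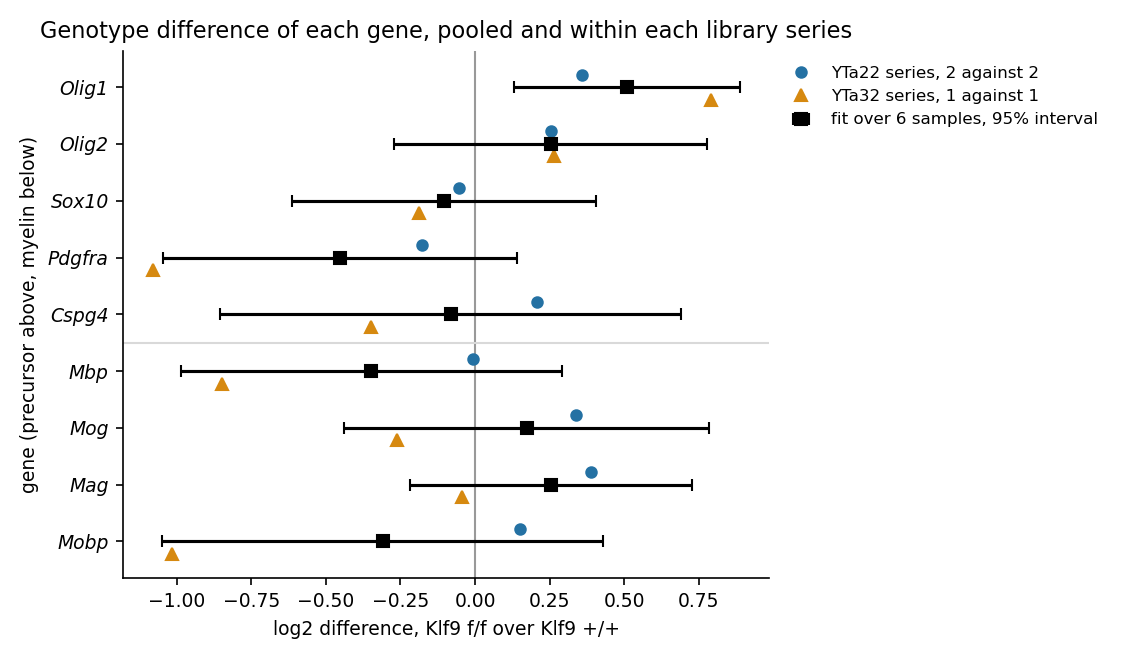
Log2 difference of Klf9 f/f over Klf9 +/+ for each gene, with squares and bars for the fit over 6 samples and its 95% interval, circles for the YTa22 series (2 samples against 2) and triangles for the YTa32 series (1 against 1). Only the interval of Olig1 (0.13 to 0.89) lies clear of 0, and the YTa32 difference is farthest below 0 for Pdgfra (-1.08), Mobp (-1.02) and Mbp (-0.85).

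The 2 library series differed in 29.5% of all genes tested at an adjusted p under 0.05 (quasi-likelihood F-test of edgeR, Benjamini-Hochberg correction), 12.9% higher and 16.6% lower in YTa32, and 0 of the 9 lineage genes were among them. The nearest were Olig1, with a log2 difference of YTa32 over YTa22 of 0.50 (adjusted p = 0.0571), and Pdgfra, with 0.78 (adjusted p = 0.0574). Within their series, Olig1 was the only 1 of the 9 for which each Klf9 f/f sample lay above the Klf9 +/+ samples, and for 0 of the 9 did each lie below, where 5.53% of all genes did. Over both series together, the genotypes overlapped for each of the 9 genes, where 2.03% of all genes had all Klf9 f/f samples above and 1.35% below the Klf9 +/+ samples.

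Wider gene lists of the lineage, written from general knowledge, placed these genes among others of the same stage. Of 22 precursor genes, 22 were tested, 18 had a fold change above 0, 2 were called higher (Olig1 and Nkx2-2) and 0 lower, with a median log2 fold change of 0.14. Over all genes tested, 7553 of 15056 were above 0, 1.82% were called higher and 2.5% lower. Nkx2-2, a homeodomain factor of precursors, was low throughout, at 0.59, 0.26 and 1.18 CPM in the Klf9 +/+ samples and at 1.31, 0.68 and 2.45 CPM in the Klf9 f/f samples. It differed by 1.18 on the log2 scale (standard error 0.45), each Klf9 f/f sample was above the Klf9 +/+ samples of its series, and it was not called without Klf9 +/+ replicate 2 (0.90), Klf9 f/f replicate 1 (0.86), either sample of YTa32 (1.25 both times) or the library series term (1.14). Among the precursor genes of highest level per length were Ptprz1 and Sox8, which neural stem cells or astrocytes also express. Ptprz1, a receptor phosphatase, had a log2 fold change of 0.14 and Sox8, a relative of Sox10, of 0.31, and neither was called. With Klf9 +/+ replicate 1 left out, the median of the precursor list was 0.34 and 3 of its genes were called higher and 1 lower. None was called higher without Klf9 +/+ replicate 3, Klf9 f/f replicate 1, Klf9 f/f replicate 3 or the library series term, or in YTa22 alone, the median was 0.094 without Klf9 +/+ replicate 2, and 14 to 18 of the 22 genes had a fold change above 0 with a sample left out.

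Of 15 genes of committed precursors and newly formed oligodendrocytes, 13 were tested, with a median log2 fold change of -0.04. Of these 13, 0 were called higher and 1 lower, where 1.82% and 2.5% of all genes tested were. The gene called lower was Bmp4 (-0.79, standard error 0.27), a secreted BMP ligand that holds precursors back from differentiation. It stood at 9.04, 5.95 and 9.44 CPM in the Klf9 +/+ samples and at 5.89, 4.22 and 3.87 CPM in the Klf9 f/f samples. The groups did not overlap, as for the 1.35% of all genes with each Klf9 f/f sample below each Klf9 +/+ sample. Bmp4 was not called without Klf9 +/+ replicate 1 (-0.68) or 3 (-0.57), or without Klf9 f/f replicate 2 (-0.72) or 3 (-0.56). The paper counts Bmp4 among quiescence signals of RGLs and reports it lower by qRT-PCR on an independent replicate of pulled-down mRNA. Gpr17, the receptor that marks committed precursors, stood at 3.98, 3.62 and 5.69 CPM in the Klf9 +/+ samples and at 9.43, 3.72 and 6.10 CPM in the Klf9 f/f samples. Gpr17, with a fold change of 0.57 (standard error 0.35), was not called, and it was chosen for mention after its value was seen. The most abundant per length were Sirt2, a deacetylase (0.096), Fyn, a kinase of process outgrowth (0.0049), and Tcf7l2, a Wnt effector (-0.10), and none of them was called. Zfp488 and Casr stayed under 1 CPM in all samples.

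Of 33 myelin and mature oligodendrocyte genes, 31 were tested, 1 was called higher and 2 lower, with 13 of 31 above 0 and a median log2 fold change of -0.05. Over all genes tested, 7553 of 15056 were above 0, 1.82% were called higher and 2.5% lower. Cnp, the phosphodiesterase of the myelin cytoplasm, stood at 124.0, 130.6 and 135.3 CPM in the Klf9 +/+ samples and at 185.2, 149.6 and 181.8 CPM in the Klf9 f/f samples, and the genotypes did not overlap, as for the 2.03% of all genes with each Klf9 f/f sample above each Klf9 +/+ sample. Cnp differed by 0.41 on the log2 scale (standard error 0.13, adjusted p = 1.00 after Benjamini-Hochberg correction in the quasi-likelihood F-test of edgeR), with differences of 0.39 and 0.43 within the 2 series, and it was not called without Klf9 +/+ replicate 3 (0.39), Klf9 f/f replicate 3 (0.40) or the library series term (0.41). Cldn11, the tight junction protein of myelin, stood at 4.67, 2.66 and 11.7 CPM in the Klf9 +/+ samples and at 2.63, 1.81 and 5.83 CPM in the Klf9 f/f samples. Each Klf9 f/f sample of Cldn11 lay below the Klf9 +/+ samples of its series, and the log2 fold change was -0.81 (standard error 0.29). Ppp1r14a, a phosphatase inhibitor that smooth muscle also expresses, stood at 12.1, 6.42 and 4.67 CPM in the Klf9 +/+ samples and at 3.95, 5.19 and 2.98 CPM in the Klf9 f/f samples, with a log2 fold change of -0.90 (standard error 0.29). Without Klf9 +/+ replicate 1, where the smooth muscle actin Acta2 was highest at 283.9 CPM, Ppp1r14a was no longer called (-0.55), nor was Cldn11 (-0.59), which also lost its call without Klf9 +/+ replicate 3 (-0.72), Klf9 f/f replicate 2 (-0.70), Klf9 f/f replicate 3 (-0.72) or the library series term (-0.90). Fibroblasts of the meninges also express Cldn11, and the part of these other cells was not tested.

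Apod, Cmtm5 and Car2 were the most abundant per length on the mature list, with log2 fold changes of -0.35, 0.23 and 0.25, none of them called, and astrocytes or perivascular cells also express them.

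Of 13 transcription factors that regulate myelination, 12 were tested and 2 were called higher, again Olig1 and Nkx2-2. Of all genes tested, 1.82% were called higher and 2.5% lower. Myrf, the factor that switches on myelin genes in the maturing cell, was not called and was chosen for mention after its values were seen. It stood between 0.66 and 1.895 CPM in Klf9 +/+ and between 1.07 and 2.004 CPM in Klf9 f/f, with a log2 fold change of 0.37 and a standard error of 0.35. Zfp191, a zinc finger factor needed for myelination, had a log2 fold change of 0.057 and was not called. Of 9 genes of myelin lipid synthesis tested, 0 were called higher and 1 lower. This was Elovl7, a fatty acid elongase, at 4.81, 5.72 and 30.7 CPM in the Klf9 +/+ samples and at 3.88, 1.09 and 3.92 CPM in the Klf9 f/f samples. The groups did not overlap, as for the 1.35% of all genes with each Klf9 f/f sample below each Klf9 +/+ sample. Klf9 +/+ replicate 3 stood far above the other samples, and without it Elovl7 was not called (-1.08, against -1.68 with it). The summed level of 10 choroid plexus markers was also highest in Klf9 +/+ replicate 3, at 2675 CPM against 21.6 to 718.0 CPM in the other 5 samples, with 10 of 10 called lower in Klf9 f/f. Its part in the Elovl7 level was not tested. Smpd1, Cers2 and Elovl1, the lipid genes of highest level per length, had log2 fold changes of 0.073, -0.099 and -0.085.

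The signals that reach the lineage showed no call in either direction, where 4.32% of all genes tested were called. Of the 6 PDGF ligands and receptors, 0 were called and the median log2 fold change was -0.17. Pdgfa, the ligand of the receptor on precursors, ran from 17.4 to 21.7 CPM in Klf9 +/+ and from 16.0 to 18.7 CPM in Klf9 f/f, and differed by -0.13 on the log2 scale (standard error 0.15). Pdgfrb, the receptor of mural cells, had -0.21 and Pdgfd, a ligand of that receptor, 0.13. Of 14 growth signal genes, 13 were tested and 0 were called, with a median of 0.0088. Lpar1, a receptor for lysophosphatidic acid, had a log2 fold change of 0.19, Fgfr1, an FGF receptor, of 0.035 and Rtn4, which encodes Nogo, of -0.17. Fgfr1 and Rtn4 were higher in the YTa32 library series, by 1.02 and 0.50 on the log2 scale (adjusted p = 0.00361 and 0.0224 after Benjamini-Hochberg correction in the quasi-likelihood F-test of edgeR).

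**Figure D4:**
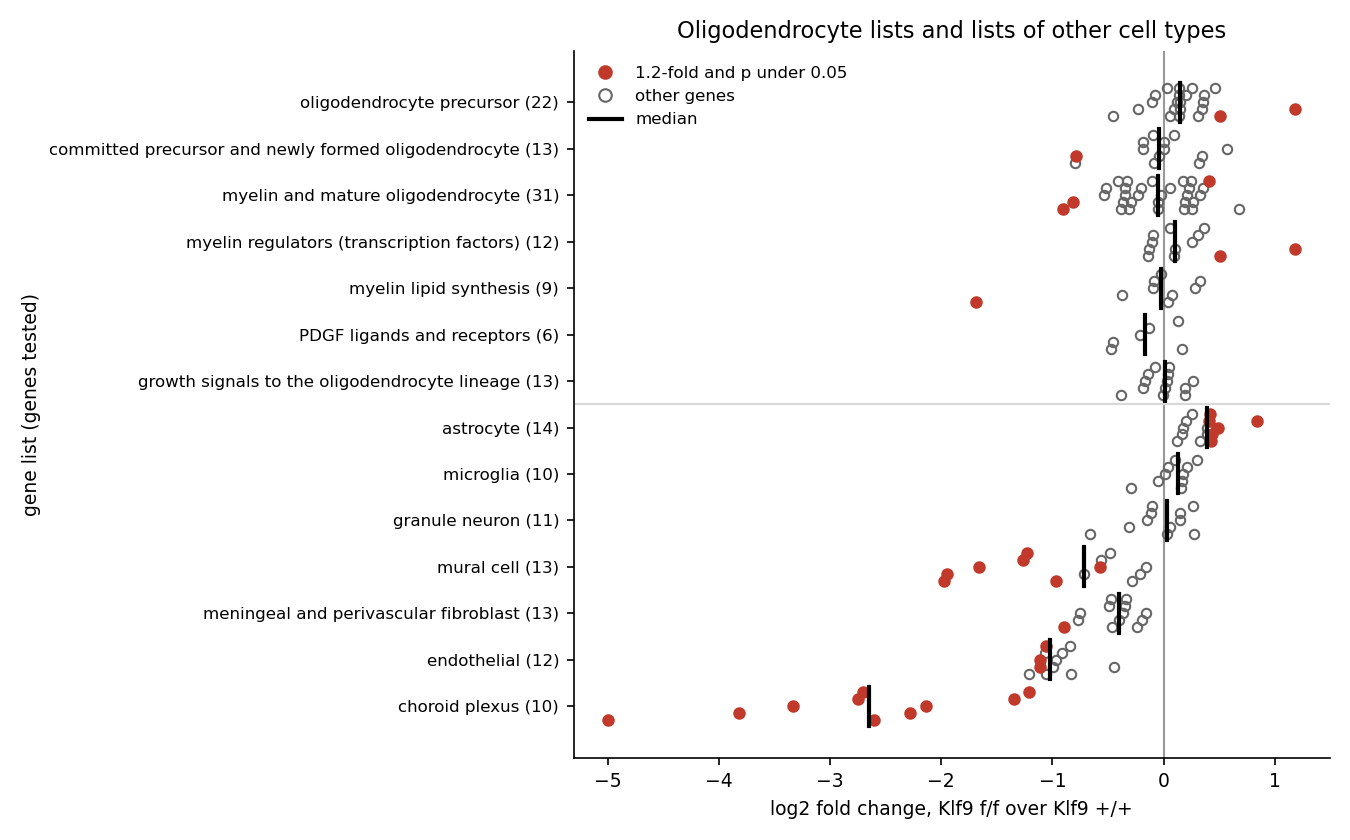
Log2 fold change of each tested gene in lists of the oligodendrocyte lineage (above the line) and of other cell types (below it), with filled points for called genes, open points for the rest and a bar at each list's median. The lineage lists have medians between -0.17 and 0.14, and the medians of mural, fibroblast, endothelial and choroid plexus markers lie lower, at -0.72, -0.40, -1.02 and -2.65.

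Against other cell types in the same samples, the lineage lists lay near the median of all genes. Over all genes tested, 1.82% were called higher and 2.5% lower. Of 12 endothelial markers, 3 were called lower (Cldn5, Flt1 and Emcn), with a median of -1.02 on the log2 scale. Of 10 microglial markers 0 were called, with a median of 0.13, and of 11 granule neuron markers 0 were called, with a median of 0.032. Of 11 radial glia-like stem cell markers, 1 was called higher (Lfng), with a median of 0.13 and a summed level of 2509 to 4306 CPM in Klf9 +/+ and 3170 to 3964 CPM in Klf9 f/f. The 9 lineage genes together summed to 276.7 to 624.7 CPM in Klf9 +/+ and 338.8 to 450.2 CPM in Klf9 f/f, of which Mbp made up the greater part in each sample. The differences between lists were not tested.

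The genes whose log2 CPM over the 6 samples was most like the mean of the 4 myelin genes, by Pearson's r among 11674 genes of at least 5 CPM, were Prdm10 (r = 0.984), Chn2 (0.978), Zfp354a (0.973), Scn3b (0.963) and Rnf170 (0.962). Those most like the mean of the 5 precursor genes were Pla2g15 (0.991), Lrfn5 (0.989), Chrm1 (0.988), Ahctf1 (0.987) and Mmp17 (0.985). With 6 samples and this many genes compared, values of this size are a description of the samples, and no gene of the wider lineage lists was among the 10.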

How the data were processed

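Ribosome-bound mRNA of the dentate gyrus was sequenced in 3 Klf9 +/+ and 3 Klf9 f/f samples. By the study's methods, the authors mapped reads with STAR to mm9, obtained one count per gene with the unstranded mode of HTSeq, and deposited whole-number counts with no scaling. Unstranded counting mixes reads of genes that overlap in opposite orientation, but the exons of the 9 genes overlap those of no other gene in GENCODE M1. Gene names were taken from that annotation, which named 37205 of 37620 identifiers. HTSeq's summary lines stayed out of every test. Reads outside genes made up 6.33% to 12.19% of each table's total, summary lines included.

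The quasi-likelihood F-test of edgeR 4.0.16 (R 4.3.3, TMM factors) was run with library series as a term, on genes above 1 CPM in at least 1 sample. Residual degrees of freedom numbered 3, and 2 with the genotype by series interaction. Log2 CPM used a prior count of 2. The steps were checked on simulated counts. The 9 genes and the lists were chosen with earlier results of these data known, so lists get counts and medians and no test. Of 213 list entries, in which some genes stand on more than 1 list, 212 were matched.

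Genes named are the 9 members, the called genes and the 3 of highest level per length of each lineage list, the most alike genes, Klf9, and defining genes of other cell types by level. Gpr17, Myrf, Ogn, Cldn5, Flt1, Emcn and Lfng fall outside this rule and were chosen after their values were seen. Alternatives were DESeq2 1.42.0, no series term, upper-quartile factors, edgeR's likelihood-ratio test, 2 other filters, a prior count of 0.5, each sample left out in turn and YTa22 alone. The rule allowed up to 3 defining genes of each other cell type, of which those touching a result are named. Some genes that this rule names are not reported here.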

Additional observations from a re-analysis of the deposited data

Results flagged for a closer look

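For Mog and Mag, each Klf9 f/f sample was above the Klf9 +/+ samples in the YTa22 library series and below the Klf9 +/+ sample in YTa32, a pattern that 9.94% of all genes tested showed in one order or the other. Within YTa22 the log2 difference was 0.34 for Mog and 0.39 for Mag. Within YTa32 it was -0.26 for Mog and only -0.043 for Mag. The difference between the series, as the interaction of genotype and series on the log2 scale, was -0.64 for Mog (standard error 0.62, adjusted p = 1.00) and -0.44 for Mag (standard error 0.50, adjusted p = 1.00), after Benjamini-Hochberg correction in the quasi-likelihood F-test of edgeR. Neither passed the test, YTa32 holds 1 sample of each genotype, and 1.53% of all genes had an unadjusted interaction p under 0.05. The lowest Mog count, 69, is the YTa32 sample of Klf9 f/f.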

How the results depend on the processing

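Against 274 genes called higher and 376 lower of 15056 tested, 50 and 163 were called without the library series term. With no filter beyond 1 count, 513 and 926 of 25153 genes were called, and in YTa22 alone 163 and 202 of 14590. With each sample left out in turn, 130 to 493 genes were called higher and 209 to 719 lower. Of the 9 lineage genes, against 1 called, 0 were called without the library series term, 3 with no filter beyond 1 count (Olig1, Pdgfra and Mbp), 0 in YTa22 alone and 0 to 4 with each sample left out. The median of the precursor genes ran from -0.22 to 0.38 with each sample left out, the highest without Klf9 +/+ replicate 1, and that of the myelin genes from -0.30, without Klf9 f/f replicate 1, to 0.20, without either YTa32 sample. Signs turned for Cspg4, to 0.037 in YTa22 alone and between -0.44 and 0.38 with a sample left out, for Mobp, to 0.035 in YTa22 alone and between -0.70 and 0.035, and for Mog, between -0.074 and 0.37. At an adjusted p under 0.05, against 0 genes by genotype, 56 were higher and 278 lower with no filter beyond 1 count, 5 and 8 in YTa22 alone, and 0 to 6 higher and 0 to 9 lower with a sample left out. Against 0 genes with an interaction at an adjusted p under 0.05, the likelihood-ratio test gave 13 and filterByExpr of edgeR, which kept 17389 genes, gave 1. The cause of these changes was not tested, but leaving out either YTa32 sample leaves no genotype comparison in that series. The fold changes of Olig1, Olig2 and Mag were above 0 and those of Sox10, Pdgfra and Mbp below 0 in 13 of 13 alternatives, and an adjusted p under 0.05 was reached by 0 of the 9 in any of them. The alternatives reuse the same samples, so a shared sign over them is not independent support. Another scaling moved the median of all genes to -0.0092 at most. No paired analysis was possible because the replicate numbers are running numbers given within each genotype and the labels pair no samples. With 3 samples a genotype and 1 of each in YTa32, the intervals of the 9 genes allow changes of both directions for 8 of them, and Mog, Sox10 and Olig2 rest on the fewest counts.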
